A study of Mus musculus with 12 samples.

Results

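Differentiating 3T3-L1 cells transfected with Paral1-siRNA were compared with cells transfected with Ctrl-siRNA at D2, across genes beyond those of adipocyte lipid metabolism. These were the arrays labelled D2, 6 of the 12 in the series, and the 3 pairs of arrays that share an experiment number (Exp1 to Exp3) were the units of comparison. 3T3-L1 is a mouse preadipocyte line that stores lipids after hormonal induction. In both groups, confluent cells received fetal bovine serum with dexamethasone, IBMX and insulin at D0, were transfected with 100 nM siRNA at the same time, and were collected after 2 days. Ctrl-siRNA is a non-targeting siRNA. The labels list for Paral1-siRNA the reagent that the methods call Paral1/2-siRNA, whereas the text of the study speaks of Paral1/1-siRNA, and either way 1 reagent was used in 1 cell line. The other 6 arrays come from adipocytes transfected at D7 and collected at D9 (Exp4 to Exp6), and serve here only for comparison.

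Expression was read on Affymetrix MTA 1.0 arrays as log2 RMA signals, so that a difference of 1 is a doubling of signal. A gene was used when a probe set carried its symbol alone, which gave 30176 genes. The *Paral1* transcript was not analysed here, and the labels were therefore not checked against the targeted RNA. At D2, 32.7% to 45.3% of genes exceeded the brightest background probe set of their array (5.84 to 6.97), and 11490 genes had a mean over the 6 arrays above 6.45, the mean of those limits. The number of arrays limits the precision. The replicate is the experiment as labelled, and the sources do not say how the 3 experiments were kept apart.

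*Paral1* is a lincRNA found in adipocytes. In the first days after induction, growth-arrested 3T3-L1 cells re-enter the cell cycle in a wave called mitotic clonal expansion, and then leave it as PPARγ and C/EBPα switch on the adipocyte programme. During that transition, preadipocyte transcription factors and secreted growth factors are turned down, while mitochondria and the secretory pathway are built up. Genes of these functions were described by group. The lists were chosen with earlier results of these data known, so their counts are a description and no test of an expectation.

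After Paral1-siRNA, *Lrig1*, *Slc5a6*, *Igf2r* and *Col6a3* were lower and *Gdpd2*, *Txnip*, *Vegfd*, *Plac8* and *Lcn2* higher in each of the 3 experiments, with mean differences of -2.29 to -0.94 and of 1.01 to 1.46 on the log2 scale. Genes of mitosis, DNA replication, protein folding in the endoplasmic reticulum, the proteasome and ribosome biogenesis were lower in all 3 experiments more often than genes at large, with medians of -0.36 to -0.31. Transcription factors of mesenchymal progenitors and secreted growth factors were more often higher than lower. No single gene passed an adjusted threshold with 3 pairs, and the first experiment gave smaller differences than the other ones for many of these genes.

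Experiment 1 stood apart from experiments 2 and 3, most clearly with Ctrl-siRNA. The summed signal of 21 white adipocyte markers was 13.72 (log2) with Ctrl-siRNA in experiment 1, against 17.59 and 16.85 in experiments 2 and 3, and 13.09 against 16.17 and 13.57 with Paral1-siRNA. The summed signal of 60 mitotic genes was likewise lowest in experiment 1, 14.86 and 14.76 against 15.54 to 16.21 in the others. The 30 preadipocyte and fibroblast markers summed to between 18.04 and 18.49 on all 6 arrays. Of 14 endothelial markers, 0 exceeded background on any array, and of 22 macrophage markers 3 did. Many results below are therefore given by experiment, as the difference of Paral1-siRNA minus Ctrl-siRNA within it. Others are given only as the mean of the 3 differences or as the median of a list.

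With the experiment as a block in limma, the adjusted p was 0.05 or more for every gene (0 calls among 30176 genes, 0.0%, lowest adjusted p = 0.34). Unadjusted, 3506 genes had a p under 0.05, where independent genes without any difference would give 1509. Genes are not independent, so that excess is no measure of real change. With an unadjusted p under 0.05 and a difference of at least 1.5-fold, 298 genes were higher (0.988% of all genes) and 346 lower (1.15%). Without the experiment as a block, limma gave 62 higher and 66 lower by the same criteria. In that fit 458 genes had an unadjusted p under 0.05, fewer than 1509. In a fit over all 12 arrays, 1 gene, *Gdpd2*, passed the adjusted threshold (adjusted p = 0.023). Below, a gene is called higher or lower when its 3 pair differences have the same sign. That holds for 5677 genes in the upward direction (18.8% of all genes) and 4393 in the downward direction (14.6%). Among the 11490 genes with a mean above background, it holds for 17.4% upward and 24.1% downward. After centring each array on its median, 3583 genes were higher and 6828 lower in every experiment, and the 1.5-fold criteria gave 206 higher and 427 lower. The median difference over all genes was 0.02, and -0.03 over those with a mean above background. Counts and medians of gene groups are to be read against these values, and they carry no test of their own.

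The shares also varied with brightness. Of 18686 genes with a mean below 6.45, 19.7% were higher and 8.7% lower in all 3 experiments. Of 3854 genes with a mean from 8 to 10, 13.9% were higher and 26.6% lower. Among 1738 genes above 12, 26.9% were higher and 20.4% lower. Genes below background were thus more often higher than lower. Of the lists of mostly dim genes, the 22 macrophage markers, 19 of them above background on no array, counted 9 higher and 1 lower. After centring each array on its median, the macrophage markers counted 3 higher and 3 lower. The 14 endothelial markers counted 2 higher and 1 lower, and the 17 brown adipocyte markers 2 higher and 2 lower.

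Agreement between experiments differed by pair. Over the 11490 genes with a mean above background, the pair differences of experiments 2 and 3 had a correlation across genes of r = 0.55 (Spearman 0.53). Experiment 1 gave r = 0.35 with experiment 3 and r = 0.15 with experiment 2. Genes are not independent replicates, and each difference shares its array normalization with all others, so that these values are descriptive.

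**Figure D1:**
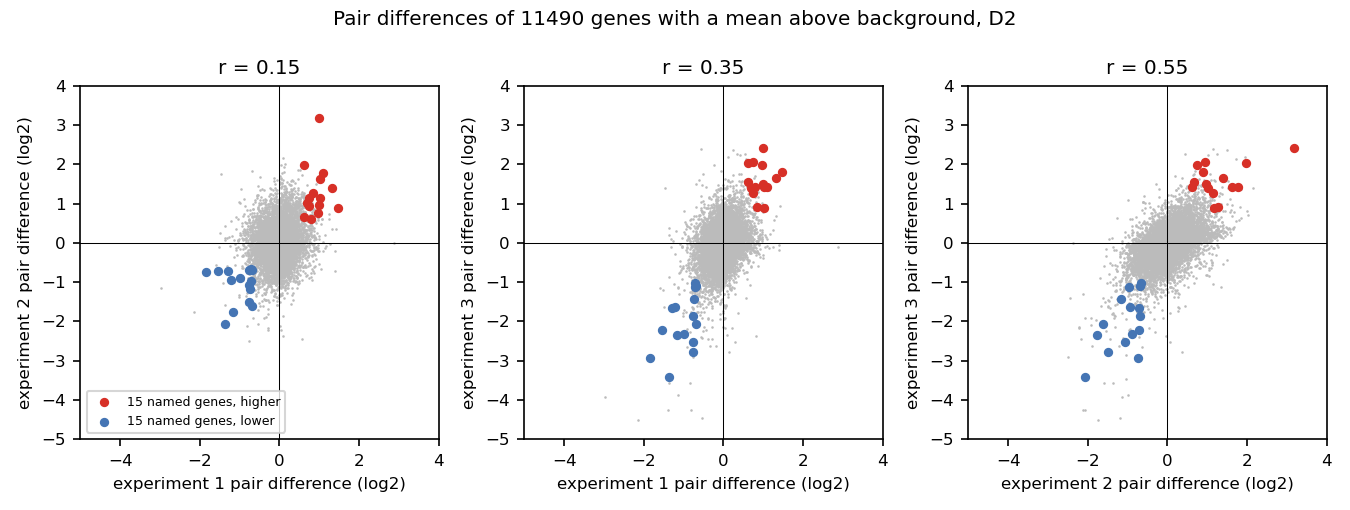
Pair differences (Paral1-siRNA minus Ctrl-siRNA, log2) of 11490 genes at D2 for each pair of experiments, with the 15 higher and 15 lower named genes in red and blue. The cloud is elongated along the diagonal for experiments 2 and 3 (r = 0.55) and nearly round for experiments 1 and 2 (r = 0.15).

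Genes whose difference held in every experiment were ranked by the smallest of their 3 pair differences, leaving lipid genes aside. In all, 29 genes were higher by 1.5-fold or more in every experiment (0.0961% of all genes) and 59 were lower (0.196%). The 15 leading genes of each direction had pair differences of at least 0.61 and at most -0.67, and their adjusted p was 0.34 in limma with the experiment block. The genes next after them were *Rgs16*, with a smallest difference of 0.60, and *Sephs2*, with -0.65. These genes were chosen by size, so their values are a description. Where 3 signed values follow a gene below, they are its pair differences in experiments 1, 2 and 3. A mean is the mean pair difference. The SE and 95% confidence interval beside a mean come from limma, with the variance moderated over all genes. They are not the spread of the 3 pair differences alone, which can be wider. The intervals are unadjusted and are not calls.

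**Figure D2:**
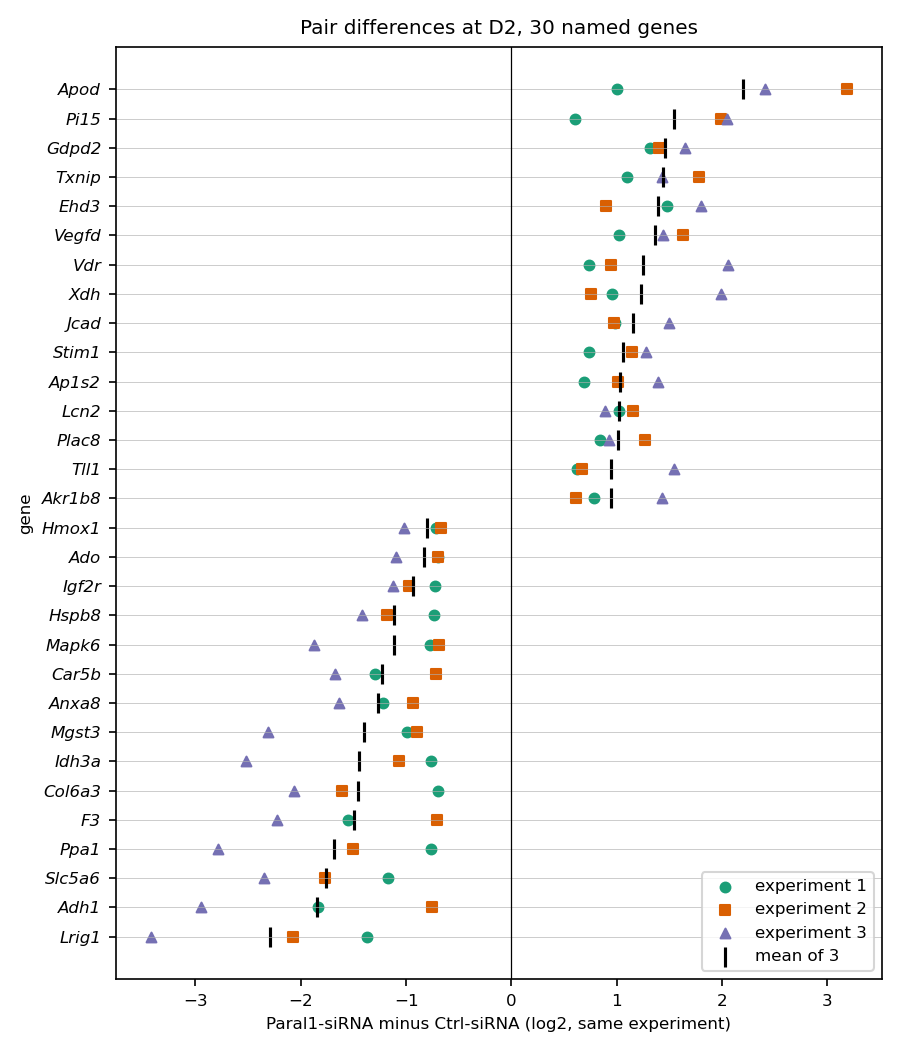
Pair differences at D2 (log2, Paral1-siRNA minus Ctrl-siRNA) for the 15 higher and 15 lower genes with the largest smallest difference. Each symbol is 1 experiment and the bar is their mean. Experiment 3 lies farthest from 0 for the 15 lower genes, and *Gdpd2* and *Lcn2* show the 3 symbols close together.

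*Gdpd2*, a glycerophosphodiester phosphodiesterase that cleaves glycerophosphoinositol, led the higher genes. Its log2 values in experiments 1 to 3 were 8.62, 6.84 and 7.56 with Ctrl-siRNA and 9.94, 8.24 and 9.21 with Paral1-siRNA. Levels were highest in experiment 1 and lowest in experiment 2 in both groups, and the groups overlapped although every pair was higher. The pair differences were 1.32, 1.40 and 1.65, with a mean of 1.46 (SE 0.10, 95% confidence interval of 1.19 to 1.72). *Txnip*, encoding the thioredoxin-interacting protein that restrains glucose uptake, had 13.99, 12.03 and 13.50 with Ctrl-siRNA and 15.09, 13.81 and 14.93 with Paral1-siRNA. The same order of experiments held, and the mean pair difference was 1.44 (SE 0.15, 95% confidence interval of 1.06 to 1.81). *Vegfd*, a growth factor for lymphatic vessels, had 9.78, 7.85 and 9.19 with Ctrl-siRNA and 10.81, 9.47 and 10.62 with Paral1-siRNA, and again experiment 2 was lowest in both groups. Its mean difference was 1.36 (SE 0.14, 95% confidence interval of 1.01 to 1.71).

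**Figure D3:**
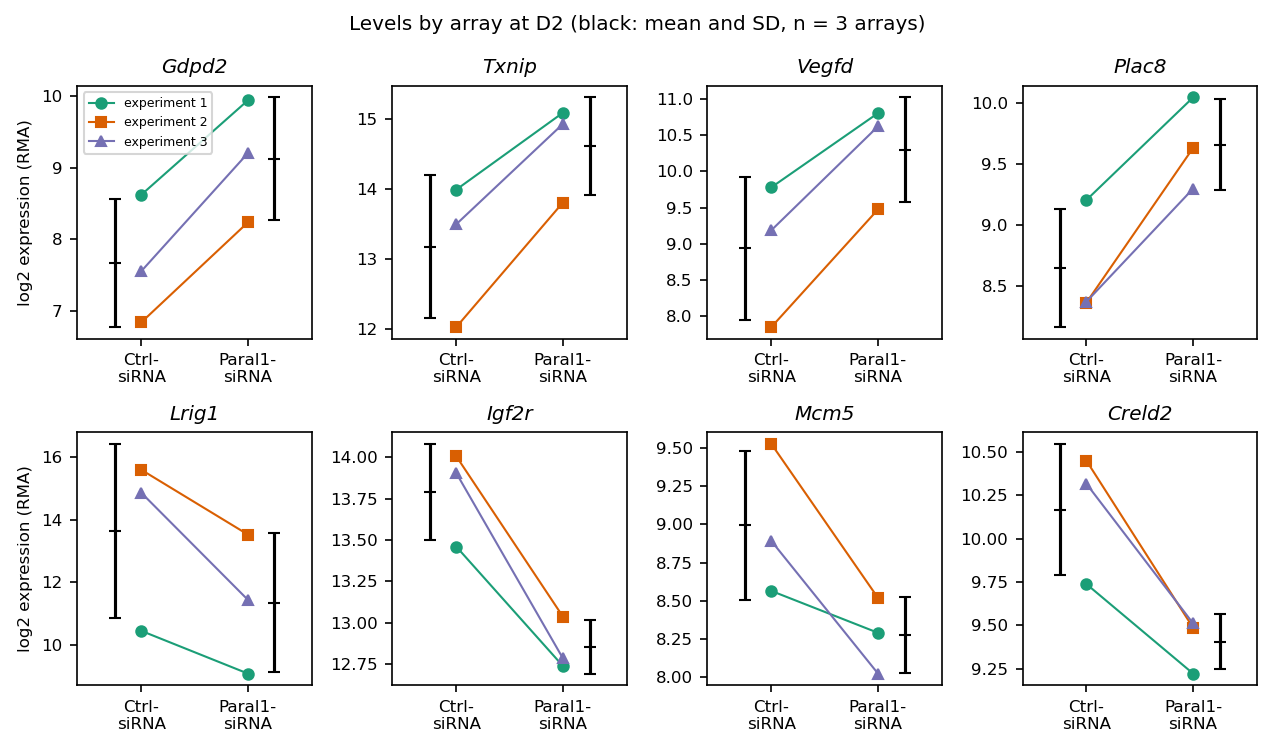
Log2 expression of 8 genes on the 6 D2 arrays, with lines joining the arrays of 1 experiment and black marks for the mean and SD of each group (n = 3 arrays). The y axes differ between panels. Every line slopes up for *Gdpd2*, *Txnip*, *Vegfd* and *Plac8* and down for *Lrig1*, *Igf2r*, *Mcm5* and *Creld2*, while the levels of the experiments differ.

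*Apod*, which encodes a secreted carrier of small lipids, had the largest mean among the higher genes, with 9.92, 7.99 and 11.20 with Ctrl-siRNA and 10.92, 11.18 and 13.61 with Paral1-siRNA. Its pair differences of 1.00, 3.19 and 2.41 spread widely around a mean of 2.20 (SE 0.41). *Plac8*, a small cysteine-rich protein required for brown fat differentiation in mice, had 9.21, 8.37 and 8.37 with Ctrl-siRNA and 10.05, 9.63 and 9.30 with Paral1-siRNA. All 3 Paral1-siRNA arrays lay above all 3 Ctrl-siRNA arrays, and the mean difference was 1.01 (SE 0.12). *Lcn2*, the siderophore-binding lipocalin of the acute phase, had 11.52, 10.71 and 11.78 with Ctrl-siRNA and 12.54, 11.87 and 12.67 with Paral1-siRNA. Here too the groups did not overlap, with a mean of 1.02 (SE 0.10). Such a separation was found for 925 genes upward (3.07% of all genes) and 639 downward (2.12%). Random group labels would give 5% in each direction, so separated genes were no more common than that. Separation, here and below, is a description and marks no gene as changed. For a single gene, separation gives p = 0.1 in a two-sided exact permutation test, the smallest p that 3 arrays against 3 allow. Of the 15 leading higher genes 5 were separated, and of the lower ones 3.

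Calcium, membrane traffic and vitamin D genes were also among the leading higher genes. *Stim1*, the calcium sensor of the endoplasmic reticulum, had 11.75, 10.04 and 10.19 with Ctrl-siRNA and 12.49, 11.19 and 11.47 with Paral1-siRNA, a mean difference of 1.06 (SE 0.13). *Ehd3*, a membrane-remodelling ATPase of recycling endosomes, differed by 1.48, 0.90 and 1.80 in the 3 experiments. For *Ap1s2*, a subunit of the clathrin adaptor AP-1, the differences were 0.69, 1.01 and 1.39, and the groups did not overlap. *Vdr*, the vitamin D receptor, which is known to restrain adipogenesis in 3T3-L1 cells, had 12.09, 9.58 and 10.38 with Ctrl-siRNA and 12.83, 10.52 and 12.44 with Paral1-siRNA. Its difference was about as large in experiments 1 and 2 and larger in experiment 3 (0.74, 0.94 and 2.06). *Jcad*, a protein of endothelial cell junctions, had a mean difference of 1.15 (SE 0.13).

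*Xdh*, which oxidises hypoxanthine and xanthine to uric acid, had pair differences of 0.96, 0.75 and 1.99. Other genes of purine breakdown stood beside it. *Pnp*, the phosphorylase that releases hypoxanthine and guanine, had 0.32, 0.89 and 1.34, its near-identical copy *Pnp2* 0.28, 0.67 and 1.24, and *Ampd3*, an AMP deaminase, a mean of 0.78 (SE 0.20). Probes may read both copies of *Pnp*, so their values are not independent. *Ada*, the adenosine deaminase, and *Gda*, the guanine deaminase, were lower in all 3 experiments, with means of -0.23 (SE 0.09) and -0.30 (SE 0.11), *Ada* being near background. Of 17 measured genes of purine breakdown and salvage, 6 were higher and 3 lower, with a median difference of -0.02. That is 35.3% and 17.6%, against 18.8% and 14.6% over all genes.

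The remaining leading higher genes encode secreted and stress proteins. *Tll1*, a tolloid protease that matures procollagen, had a mean of 0.94 (SE 0.20). *Pi15*, a secreted peptidase inhibitor, had 1.55 (SE 0.30), with levels of 8.70, 8.59 and 12.40 with Ctrl-siRNA and 9.31, 10.57 and 14.44 with Paral1-siRNA, higher in experiment 3 than in the others in both groups. *Akr1b8*, an aldo-keto reductase, had 0.78, 0.61 and 1.43, and its relative *Akr1b10*, which its probes may not separate, 0.63, 0.46 and 0.44.

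Among the lower genes *Lrig1* led. It encodes a membrane protein that promotes the breakdown of growth factor receptors, and had 10.44, 15.59 and 14.86 with Ctrl-siRNA and 9.07, 13.52 and 11.43 with Paral1-siRNA. The level with Ctrl-siRNA was far lower in experiment 1 than in the others, yet each pair was lower, with differences of -1.37, -2.07 and -3.43 with a mean of -2.29 (SE 0.38, 95% confidence interval of -3.26 to -1.31). *Slc5a6*, the transporter of biotin and pantothenate, had 9.29, 11.57 and 9.70 with Ctrl-siRNA and 8.12, 9.80 and 7.36 with Paral1-siRNA. Its mean difference was -1.76 (SE 0.23, 95% confidence interval of -2.34 to -1.19). Biotin is the cofactor of carboxylases and pantothenate the precursor of coenzyme A. *Adh1*, an alcohol dehydrogenase that oxidises retinol, had 8.66, 8.40 and 10.46 with Ctrl-siRNA and 6.82, 7.65 and 7.52 with Paral1-siRNA, with no overlap between groups.

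Mitochondrial and redox enzymes followed. *Ppa1*, the cytosolic pyrophosphatase, had pair differences of -0.76, -1.50 and -2.78. *Idh3a*, the catalytic subunit of the NAD-dependent isocitrate dehydrogenase, had -0.76, -1.07 and -2.52, and *Car5b*, a mitochondrial carbonic anhydrase, -1.29, -0.72 and -1.67. For *Mgst3*, a microsomal glutathione transferase, the differences were -0.99, -0.90 and -2.31, and for *Hmox1*, the haem oxygenase induced by oxidative stress, -0.71, -0.67 and -1.02. *Ado*, the cysteamine dioxygenase that also oxidises N-terminal cysteines, had 7.44, 7.76 and 7.75 with Ctrl-siRNA and 6.74, 7.07 and 6.65 with Paral1-siRNA. The Paral1-siRNA arrays of *Ado* all lay below the Ctrl-siRNA arrays, with a mean difference of -0.83 (SE 0.12).

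*Igf2r*, the receptor that carries IGF2 and mannose-6-phosphate-tagged enzymes to lysosomes, had 13.46, 14.01 and 13.91 with Ctrl-siRNA and 12.74, 13.04 and 12.78 with Paral1-siRNA. Its levels varied little between experiments, the groups did not overlap, and the mean difference was -0.94 (SE 0.11, 95% confidence interval of -1.22 to -0.66). *F3*, tissue factor, which starts coagulation, had -1.55, -0.70 and -2.23. *Col6a3*, the collagen VI chain that is the source of endotrophin, had 11.40, 14.92 and 14.62 with Ctrl-siRNA and 10.70, 13.31 and 12.55 with Paral1-siRNA, a mean of -1.46 (SE 0.26). *Anxa8*, a membrane-binding annexin, had a mean of -1.26 (SE 0.15), *Hspb8*, a small heat shock protein, -1.11 (SE 0.15), and *Mapk6*, which encodes ERK3, -1.11 (SE 0.25).

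**Figure D4:**
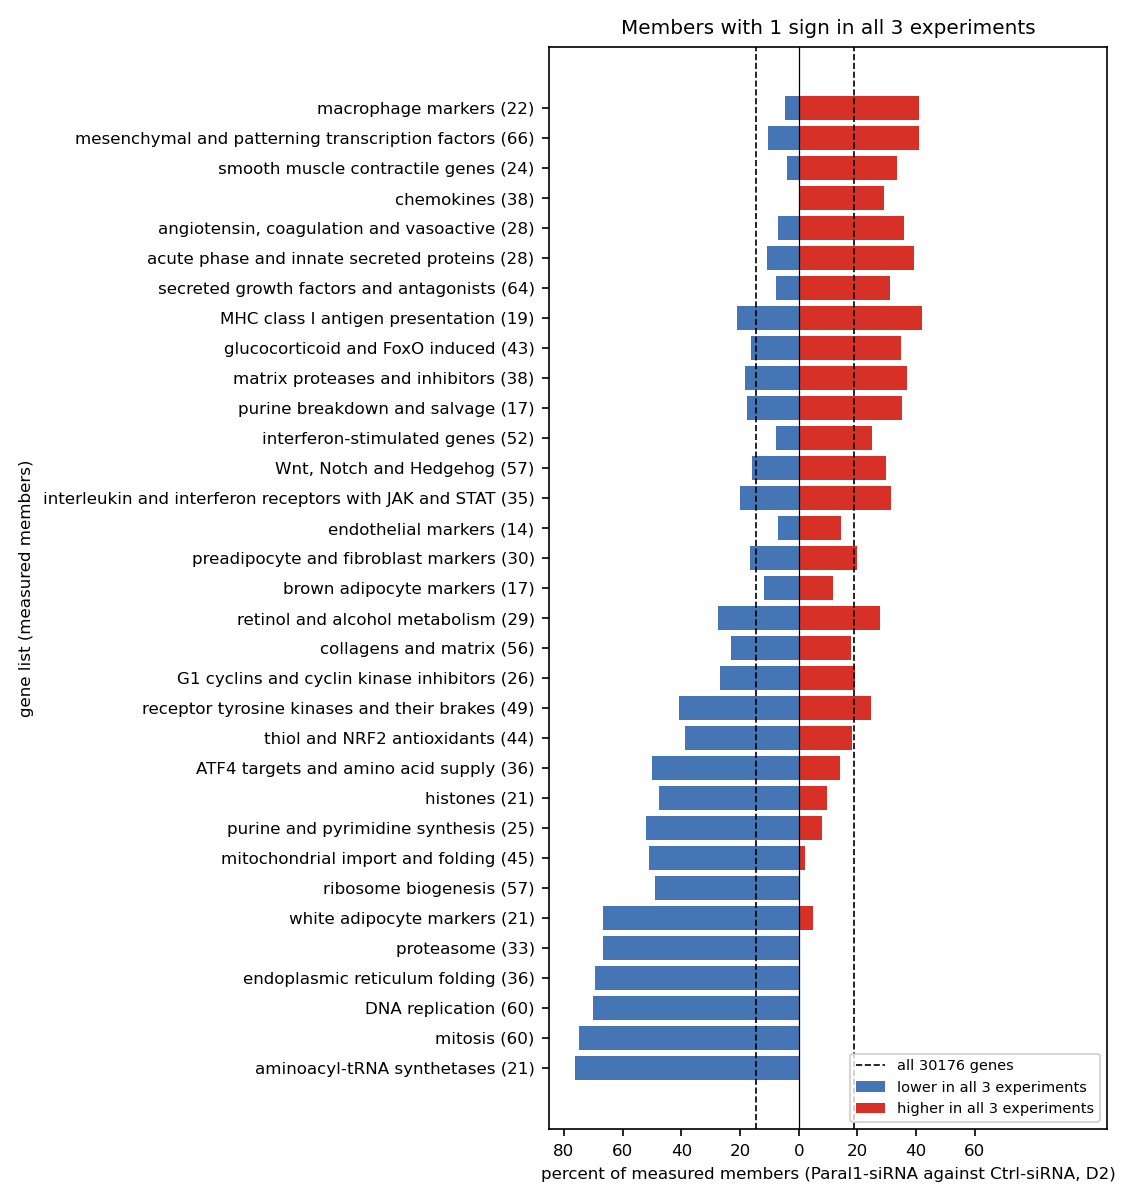
Percent of the measured members of each gene list that were higher (red) or lower (blue) with Paral1-siRNA in all 3 experiments at D2, with the number measured in brackets. Dashed lines mark the same shares over all 30176 genes, 18.8% and 14.6%. Over genes with a mean above background these shares were 17.4% and 24.1%. Mitosis, DNA replication, protein folding in the endoplasmic reticulum and the proteasome reach 66.7% to 75% lower with no member higher, and the dim macrophage markers lie at the top.

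Cell division genes were mostly lower. Of 60 measured genes of mitosis, 45 were lower in all 3 experiments and 0 were higher (75% against 14.6% over all genes and 24.1% over genes with a mean above background), with a median difference of -0.32. The medians of experiments 1, 2 and 3 were -0.19, -0.32 and -0.35. Of 60 genes of DNA replication, 42 were lower in all 3 experiments and 0 higher. Their median difference was -0.31, with -0.19, -0.37 and -0.37 by experiment. Leaving out experiment 1, in which these genes were dimmest, 52 mitotic genes were lower and 2 higher in both other experiments, and 49 and 0 for replication. The white adipocyte markers were lower as well (14 of 21), and their part in these results was not tested. In bulk RNA, fewer cells of a type and less RNA per cell cannot be told apart.

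*Ncapg2*, a subunit of condensin II, which compacts chromosomes, had 6.93, 11.24 and 10.80 with Ctrl-siRNA and 6.49, 10.27 and 8.58 with Paral1-siRNA. It was dim in experiment 1 and bright in the others, and the differences were -0.44, -0.97 and -2.22. *Zwint*, a kinetochore protein, had -0.47, -0.71 and -0.82, *Trip13*, an ATPase of the spindle checkpoint, -0.20, -0.73 and -1.10, and *Ube2s*, which extends ubiquitin chains for the anaphase-promoting complex, -0.17, -0.85 and -0.81. These members were all lower, with experiment 1 giving the smallest difference. Among other mitotic kinases and cyclins, *Aurka* had a mean of -0.59 (SE 0.14), *Cdk1*, the kinase that drives entry into mitosis, -0.32 (SE 0.13), and *Ccna2*, cyclin A, -0.36 (SE 0.09). *Mki67*, a marker of dividing cells, was not lower in every experiment, with 0.22, -0.82 and -0.71, and neither was *Top2a*, the topoisomerase of condensing chromosomes, with 0.01, -0.05 and 0.33.

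Replication genes from licensing to the polymerases were lower together. *Mcm5*, a subunit of the replicative helicase, had 8.56, 9.52 and 8.89 with Ctrl-siRNA and 8.29, 8.52 and 8.03 with Paral1-siRNA. All Paral1-siRNA arrays lay below all Ctrl-siRNA arrays, and the mean difference was -0.71 (SE 0.16). *Mcm6*, of the same helicase, had -0.30, -0.80 and -0.62, and *Cdc6*, which loads it on origins, -0.16, -0.51 and -0.79. *Ccne1*, cyclin E, had -0.32, -0.95 and -1.44, and *Cdc25a*, the phosphatase that activates its kinase, -0.18, -0.68 and -1.04. *Polh*, a translesion polymerase, had -0.65, -0.80 and -0.61, with the 3 experiments close together.

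Nucleotide supply and histone genes stood with replication. Of 25 genes of purine and pyrimidine synthesis, 13 were lower and 2 higher (52% lower, median -0.31). Over genes with a mean above background 24.1% were lower. *Rrm2*, the limiting subunit of ribonucleotide reductase, had 8.69, 10.92 and 10.67 with Ctrl-siRNA and 8.10, 10.32 and 9.05 with Paral1-siRNA, a mean of -0.94 (SE 0.23), and *Tyms*, thymidylate synthase, -0.57 (SE 0.14). Of 21 histone genes, 10 were lower and 2 higher (47.6% lower, median -0.21). *H2ax*, a variant that marks DNA breaks, had -0.37, -1.45 and -0.99. *H1f2*, a linker histone, went in the opposite direction with 0.98, 0.10 and 0.89. Histone genes share long stretches of sequence and their probe sets may read each other. Their median was -0.33 without experiment 1. That of nucleotide synthesis was -0.21 without experiment 3.

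The regulators of the G1 phase showed no common direction. Of 26 measured genes, 7 were lower and 5 higher (26.9% and 19.2%, median 0.04). Over genes with a mean above background 24.1% were lower and 17.4% higher. *Ccnd2*, cyclin D2, had -0.79, -0.34 and -1.62, and the kinase inhibitors *Cdkn1a* (p21) and *Cdkn2c* (p18) -0.22, -0.53 and -1.40 and -0.13, -0.29 and -0.82. A cyclin and inhibitors of its kinases were thus lower side by side.

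The promoters of the replication genes held E2F motifs more often than other promoters. RefSeq promoters (GRCm38.p6) were found for 17972 of the measured genes, and the 250 bases before the start site were searched on both strands. TTTCCCGC or TTTGGCGC, sequences bound by E2F, the factor that switches on S-phase genes, occurred in 9 of 51 replication genes (17.6%) against 1.9% of all 17972 genes. Of the 342 genes with one of these motifs, 30.4% were lower in all 3 experiments and 13.2% higher, against 15.5% and 17.7% of all genes with a promoter. Over genes with a mean above background, with or without a promoter, the shares were 24.1% and 17.4%, and brightness was not matched. The 342 include 9 genes of the replication list and 3 of the mitosis list, so the counts are not separate. The cell cycle homology region, TTTGAA, of mitotic promoters was found in 18 of 50 mitotic genes (36%) against 16.5% of all genes. The short letters of that motif occur by themselves often, and of all 2973 genes that held it 14.5% were lower. A match is a description and not a tested binding site. Stretches from 3 replication and 3 mitotic promoters are given 5′ to 3′ on the strand of the gene, with the motif in capitals, since they show the letters that the counts rest on. In *Mcm5* and *Cdc6* the motif lies on the opposite strand.
Mcm5: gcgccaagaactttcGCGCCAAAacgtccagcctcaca
Mcm6: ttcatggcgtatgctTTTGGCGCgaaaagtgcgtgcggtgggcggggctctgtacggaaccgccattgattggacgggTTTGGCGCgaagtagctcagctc
Cdc6: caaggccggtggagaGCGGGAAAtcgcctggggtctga
Cdc20: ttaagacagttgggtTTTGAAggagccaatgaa
Ncapg: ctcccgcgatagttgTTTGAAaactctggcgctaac
Cdk1: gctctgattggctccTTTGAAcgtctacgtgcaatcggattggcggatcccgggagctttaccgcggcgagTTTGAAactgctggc
They lie at chr8:75109345-75109382, plus strand (*Mcm5*), chr1:128359730-128359830, minus strand (*Mcm6*), chr11:98907998-98908035, plus strand (*Cdc6*), chr4:118437344-118437376, minus strand (*Cdc20*), chr5:45669880-45669915, plus strand (*Ncapg*) and chr10:69352913-69352998, minus strand (*Cdk1*). *Mcm6* holds 2 copies of TTTGGCGC, and *Cdk1* 2 copies of TTTGAA. *Cdc20*, the activator of the anaphase-promoting complex, had pair differences of -0.11, -0.71 and -0.38, and *Ncapg*, a subunit of condensin I, -0.21, -0.32 and -0.35.

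Genes of protein folding in the endoplasmic reticulum were lower in each experiment to a similar degree. Of 36 measured genes, 25 were lower and 0 higher in all 3 experiments (69.4% against 24.1% lower over genes with a mean above background). The median was -0.35, with -0.30, -0.37 and -0.40 in experiments 1, 2 and 3. *Creld2*, a secreted protein induced by endoplasmic reticulum stress, had 9.74, 10.45 and 10.32 with Ctrl-siRNA and 9.22, 9.49 and 9.51 with Paral1-siRNA. Its groups did not overlap, and the mean difference was -0.76 (SE 0.12, 95% confidence interval of -1.06 to -0.47). *Xbp1*, the transcription factor of the unfolded protein response, had -0.29, -0.86 and -1.30. *Hspa5*, the chaperone BiP, had -0.64, -0.39 and -0.32, and *Hsp90b1*, the chaperone GRP94, -0.73, -0.18 and -0.44. *Qsox1*, a sulfhydryl oxidase, and *Ssr2*, a subunit of the translocon-associated complex, had means of -0.84 (SE 0.18) and -0.70 (SE 0.17), and neither had overlapping groups.

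Some promoters of these folding genes share a rare sequence. The endoplasmic reticulum stress element, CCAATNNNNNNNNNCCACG, which includes a CCAAT box, is bound by NF-Y together with ATF6 and was found in 9 of the 33 folding genes with a promoter (27.3%) against 27 of all 17972 genes (0.2%). Of those 9, 8 were lower in all 3 experiments with a median of -0.42. Of the whole folding list, with or without the element, 69.4% were lower. Of the 18 genes outside the list that hold the element, 1 was lower and 2 were higher, with a median of 0.04. The difference between the groups of genes with the element was not tested, and their brightness was not matched. In all, 6 stretches are shown because they carry the element beside the values, with its letters in capitals.
Hspa5: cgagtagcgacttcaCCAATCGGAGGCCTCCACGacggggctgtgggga
Creld2: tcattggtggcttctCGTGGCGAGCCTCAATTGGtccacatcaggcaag
Hsp90b1: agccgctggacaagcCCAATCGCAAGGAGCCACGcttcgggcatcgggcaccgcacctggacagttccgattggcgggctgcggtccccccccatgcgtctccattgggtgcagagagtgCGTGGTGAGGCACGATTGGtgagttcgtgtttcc
Pdia6: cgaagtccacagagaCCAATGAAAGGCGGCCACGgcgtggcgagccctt
Syvn1: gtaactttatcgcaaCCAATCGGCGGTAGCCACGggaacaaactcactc
Dnajc3: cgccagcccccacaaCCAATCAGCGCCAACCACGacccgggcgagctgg
They lie at chr2:34772010-34772058, plus strand (*Hspa5*), chr15:88819505-88819553, plus strand (*Creld2*), chr10:86705518-86705671, minus strand (*Hsp90b1*), chr12:17266476-17266524, plus strand (*Pdia6*), chr19:6046517-6046565, plus strand (*Syvn1*) and chr14:118937812-118937860, plus strand (*Dnajc3*). In *Creld2* the element is on the opposite strand, and *Hsp90b1* holds it 2 times, once on each strand. *Pdia6*, a disulfide isomerase, had pair differences of -0.32, -0.13 and -0.82, *Syvn1*, the ubiquitin ligase of misfolded proteins, -0.30, -0.66 and -0.33, and *Dnajc3*, a co-chaperone of BiP, -0.47, -0.02 and -0.50. The ninth gene, *Ero1b*, was lower in experiments 1 and 2 and near 0 in experiment 3, with -0.23, -0.15 and 0.01.

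Genes of protein breakdown and of ribosome assembly were lower as well. Of 33 proteasome genes, 22 were lower and 0 higher (66.7%, median -0.36). Of 57 genes of ribosome biogenesis, 28 were lower and 0 higher (49.1%, median -0.31). All members of these lists had a mean above background, where 24.1% of genes at large were lower. The proteasome medians of experiments 1, 2 and 3 were -0.23, -0.27 and -0.61. *Psma1* and *Psma5*, subunits of the core particle, had -0.56, -0.61 and -0.92 and -0.31, -0.81 and -1.53, and *Psmd1* and *Psmd2*, of its regulatory cap, -0.50, -0.68 and -0.80 and -0.23, -1.08 and -0.79. The differences were present in every experiment and mostly smallest in experiment 1. *Bysl*, needed for the small subunit, had 9.26, 10.04 and 9.40 with Ctrl-siRNA and 9.12, 8.83 and 8.41 with Paral1-siRNA, with no overlap between groups. *Odc1*, the enzyme that starts polyamine synthesis, had -0.60, -0.65 and -1.56, and *Nolc1*, a nucleolar chaperone, -0.14, -0.94 and -1.12. The medians of ribosome biogenesis differed by experiment, with values of -0.12, -0.33 and -0.50, and their overall median was -0.21 without experiment 3.

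Genes of amino acid supply were likewise more often lower. Of 36 targets of the stress factor ATF4 and amino acid transporters, 18 were lower and 5 higher (50%, median -0.21). Over all genes 14.6% were lower, and 24.1% over those with a mean above background. *Slc7a5*, the carrier of large neutral amino acids, had 10.72, 13.20 and 10.94 with Ctrl-siRNA and 10.42, 10.97 and 8.80 with Paral1-siRNA. The difference was -0.29, -2.23 and -2.14, small in experiment 1 and large in the others. *Slc7a1*, the carrier of arginine and lysine, had -0.27, -1.10 and -1.11, and *Slc1a3*, a glutamate carrier, -0.20, -1.12 and -1.42. For *Phgdh*, the first enzyme of serine synthesis, the mean was -0.83 (SE 0.19). Of 21 aminoacyl-tRNA synthetases, 16 were lower and 0 higher (76.2%), with medians of -0.18, -0.54 and -0.60 by experiment. *Mars1*, the methionyl-tRNA synthetase, had -0.18, -0.86 and -0.81 and, like *Kars* and *Yars*, showed no overlap between groups.

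Import and folding in mitochondria followed. Of 45 measured genes, 23 were lower and 1 higher (51.1% against 24.1% lower over genes with a mean above background). The median was -0.35, with -0.09, -0.33 and -0.53 by experiment. Without experiment 3 the median was -0.19. *Dnajc15*, a co-chaperone of the inner membrane import motor, had 10.02, 9.98 and 10.12 with Ctrl-siRNA and 9.37, 9.28 and 9.27 with Paral1-siRNA. Its levels were nearly the same in the 3 experiments and the groups did not overlap, with a mean difference of -0.73 (SE 0.09, 95% confidence interval of -0.96 to -0.50). *Hspd1*, the chaperonin HSP60, had -0.62, -0.50 and -1.05, *Mtx2*, of the outer membrane import machinery, -0.71, -0.41 and -1.24, and *Chchd4*, which oxidises imported proteins, -0.01, -0.93 and -1.08.

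In the upward direction stood transcription factors of mesenchymal progenitors. Of 66 measured, 27 were higher in all 3 experiments and 7 lower (40.9% higher against 18.8% over all genes), with a median of 0.14. In both other experiments without experiment 1, 38 were higher and 12 lower. *Prrx1*, a homeobox factor that marks preadipocytes and restrains their differentiation, had 10.96, 9.45 and 10.34 with Ctrl-siRNA and 11.16, 11.02 and 11.45 with Paral1-siRNA. All Paral1-siRNA arrays lay above all Ctrl-siRNA arrays, and the mean was 0.96 (SE 0.26). *Osr1*, a zinc finger factor of limb connective tissue, had 13.07, 10.19 and 11.70 with Ctrl-siRNA and 13.16, 12.34 and 13.09 with Paral1-siRNA, with 10.19 the lowest value and almost no difference in experiment 1. *Meis1*, a cofactor of Hox proteins, had 0.29, 1.32 and 1.28, *Nr2f2* (COUP-TFII), which represses adipogenesis, 0.49, 1.06 and 0.84, and *Aebp1*, a repressor named for binding an adipocyte enhancer, 0.86, 0.38 and 1.31. The Hedgehog effectors *Gli1*, *Gli2* and *Gli3* were higher, with means of 0.15, 0.48 and 0.31.

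The 7 lower members were *Lef1*, *Tcf7l1*, *Tcf7l2*, *Sox9*, *Nfia*, *Tead1* and *Irx5*. The first 3 of them act at the end of the Wnt pathway. *Lef1* had -0.37, -1.30 and -1.08, and *Tcf7l1* -0.37, -0.77 and -1.21, with no overlap between groups. *Lrp5*, a Wnt coreceptor, had -0.72, -0.87 and -0.60, and *Notch1*, a receptor of the Notch pathway, -0.29, -0.84 and -1.18. Over 57 measured genes of Wnt, Notch and Hedgehog signalling the counts were 17 higher and 9 lower (median 0.04), so that no common direction was seen. These are 29.8% and 15.8%, against 18.8% and 14.6% over all genes.

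Secreted growth factors were more often higher. Of 64 measured growth factors and antagonists, 20 were higher and 5 lower (31.2% against 18.8%), and 39 were mixed, with a median of 0.08 that was 0.12 without experiment 1. *Igf1*, the insulin-like growth factor, had 0.12, 1.95 and 2.19, with little difference in experiment 1. *Hgf*, the ligand of the receptor MET, had 0.04, 0.79 and 1.63, with the same split. *Fst*, the activin antagonist follistatin, had a mean of 0.74 (SE 0.22), and *Vegfc*, the relative of *Vegfd*, 0.47 (SE 0.12). *Bmper*, an extracellular modulator of BMP signals, was lower with -1.51, -0.12 and -1.21.

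Receptors of such factors and their inhibitors were more often lower, with members in both directions. Of 49 measured receptor tyrosine kinases, adaptors and inhibitors, 20 were lower and 12 higher (40.8% lower against 14.6%), with a median of -0.02. Over genes with a mean above background 24.1% were lower. *Spry4*, an inhibitor induced by the ERK pathway, had 6.91, 9.90 and 9.03 with Ctrl-siRNA and 6.37, 7.83 and 7.12 with Paral1-siRNA. The pair differences were -0.55, -2.08 and -1.91, smallest in size in experiment 1, with a mean of -1.51 (SE 0.31). *Sh2b2*, an adaptor of the insulin receptor, had -0.36, -1.29 and -1.02. The receptors *Met*, *Fgfr1*, *Insr* and *Pdgfrb* had means of -0.84, -0.81, -0.61 and -0.55, and the insulin receptor substrates *Irs1* and *Irs2* -0.67 and -0.50, each lower in all 3 experiments. In the other direction were *Errfi1*, an inhibitor of EGFR, with a mean of 0.46 (SE 0.11), and *Dusp6*, a phosphatase of ERK, with 0.44 (SE 0.12).

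Secreted proteins of the acute phase and innate immunity were more often higher than lower. Of 28 measured, 11 were higher and 3 lower (39.3% against 18.8%), but 16 had a mean below background, and the median was 0.08. *Orm2*, an orosomucoid, had 6.98, 6.91 and 6.82 with Ctrl-siRNA and 7.79, 7.36 and 7.88 with Paral1-siRNA, with no overlap between groups, and its copies *Orm1* and *Orm3* 0.30, 0.29 and 0.23 and 0.16, 0.55 and 0.62. *C1rb* and its copy *C1ra*, complement proteases, had 0.53, 0.86 and 1.01 and 0.52, 0.80 and 0.67. *Ptx3*, a pentraxin, had 8.05, 8.11 and 7.72 with Ctrl-siRNA and 8.38, 9.09 and 8.41 with Paral1-siRNA, without overlap and with a mean of 0.67 (SE 0.14). Probes may not separate the copies of *Orm* and *C1r*.

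Of 38 measured chemokines and related cytokines, 11 were higher and 0 lower (28.9% against 18.8%), and 30 had a mean below background. *Cxcl5*, a neutrophil attractant, had 0.33, 0.77 and 0.77, and *Csf1*, the macrophage growth factor, 0.39, 0.82 and 0.27. Of 35 measured interleukin and interferon receptors with their JAK and STAT partners, 11 were higher and 7 lower, with a median of 0.09 that was 0.03 without experiment 3. These counts are 31.4% and 20%, against 18.8% and 14.6% over all genes. *Il6st* (gp130) had 15.69, 14.49 and 15.47 with Ctrl-siRNA and 16.17, 15.91 and 17.04 with Paral1-siRNA, with no overlap. *Il31ra*, which pairs with the oncostatin M receptor, had 0.22, 1.18 and 1.58, and *Ifngr1*, the interferon gamma receptor, was lower with -0.38, -0.81 and -1.56. Of 52 interferon-stimulated genes, 13 were higher and 4 lower (25%), and 36 had a mean below background. After centring each array on its median, 9 of the 52 were higher and 7 lower. The macrophage markers *Adgre1*, *Csf1r*, *Ptprc* and *Itgam* exceeded background on 0 of 6 arrays. The summed signal of all 22 macrophage markers was 9.52 to 9.82 with Ctrl-siRNA and 9.51 to 9.61 with Paral1-siRNA.

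Matrix genes were found in both directions. Of 56 measured collagens and matrix genes, 10 were higher and 13 lower (17.9% and 23.2%, median 0.04). Over genes with a mean above background 17.4% were higher and 24.1% lower, so these shares were near those of genes at large. *Col12a1*, a fibril-associated collagen, had 0.53, 1.25 and 2.27, and *P4ha3*, a prolyl hydroxylase of collagen, 0.41, 1.01 and 2.23, whereas *Col6a3* and *P3h2*, a prolyl 3-hydroxylase, were lower (-1.25, -0.08 and -1.04 for the latter). Of 24 smooth muscle genes, 8 were higher and 1 lower (33.3% higher against 18.8% over all genes). *Acta2*, smooth muscle actin, had 0.04, 1.04 and 0.24.

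Genes induced by glucocorticoids, which the medium holds as dexamethasone, or by FoxO factors, which insulin restrains, had 15 higher and 7 lower of 43 measured (median 0.10, and 0.18 without experiment 1). That is 34.9% higher and 16.3% lower, against 18.8% and 14.6% over all genes. *Tsc22d3*, the glucocorticoid-induced leucine zipper protein, had 0.23, 0.71 and 1.07, but *Fkbp5*, a target of the same receptor, a mean of -0.26 (SE 0.13). *Sat1*, which breaks down polyamines, had 0.06, 1.19 and 0.86, in the direction opposite to *Odc1*. Of 44 antioxidant genes, 17 were lower and 8 higher (38.6% and 18.2%, median -0.09). Over genes with a mean above background 24.1% were lower and 17.4% higher. *Aifm2* (FSP1), a guard against lipid peroxidation, had -0.08, -0.97 and -1.54.

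Genes of retinol metabolism and preadipocyte markers gave mixed counts over all measured members. Of 29 measured genes of retinol and alcohol metabolism, 8 were higher and 8 lower. Among the 16 of them with a mean above background, 2 were higher and 6 lower. *Dhrs3*, a retinal reductase, had -0.33, -1.20 and -1.08, and *Rdh11* -0.59, -0.37 and -0.96. Of 30 preadipocyte and fibroblast markers, 6 were higher and 5 lower (20% and 16.7%, against 18.8% and 14.6% over all genes). *Medag*, a factor that promotes adipocyte differentiation, had 8.73, 6.81 and 8.85 with Ctrl-siRNA and 9.27, 7.98 and 10.47 with Paral1-siRNA, a mean of 1.10 (SE 0.21). *Anpep* (CD13) had 0.24, 0.94 and 1.39, while *Pdgfrb* and *Thy1* were lower, with means of -0.55 (SE 0.20) and -0.20 (SE 0.08). Of 19 genes of MHC class I presentation, 8 were higher (42.1% against 18.8% over all genes) and 4 lower. Among the 10 of them with a mean above background, 3 were higher and 4 lower. The lower ones included *Canx* (-0.31, -0.43 and -0.48), a chaperone also of the folding pathway. Of 21 white adipocyte markers, all among the lipid genes set aside above, 14 were lower and 1 higher, and of 17 brown adipocyte markers 2 were higher and 2 lower, with 15 above background on no array.

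Genes of angiotensin, coagulation and vessel tone were more often higher than lower before centring of the arrays. Of 28 measured, 10 were higher and 2 lower (35.7% against 18.8%), with a median of 0.06 that was 0.11 without experiment 1. Of the 28, 16 had a mean below background, where 19.7% of all genes were higher and 8.7% lower. After centring each array on its median, 5 were higher and 4 lower. Among the 12 members above background on 3 or more arrays, 4 were higher and 2 lower. *Thbd*, thrombomodulin, which curbs coagulation, had 0.45, 0.25 and 0.78, and *Npr3*, the clearance receptor of natriuretic peptides, 0.04, 0.60 and 0.91. The other higher members had means from 0.05 (*Ace*) to 0.29 (*Plat*). The 2 lower members were larger in size, *F3* with the values above and *Agt*, the angiotensinogen gene, with -0.60, -1.35 and -1.84.

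Next to *Paral1* on its chromosome lie *Pak7* and *Ankef1* (Ankrd5). *Pak7* had 4.32, 4.03 and 4.14 with Ctrl-siRNA and 4.33, 4.11 and 4.16 with Paral1-siRNA, below background on all arrays, so that a decrease was not detectable. *Ankef1* had 5.66, 5.97 and 6.08 with Ctrl-siRNA and 5.56, 6.01 and 5.79 with Paral1-siRNA, likewise below background, with a mean difference of -0.12 (SE 0.10, 95% confidence interval of -0.38 to 0.14). Of 8 measured genes of the neighbourhood 1 was higher (*Pak7*, which had -0.0102 after centring the arrays) and 1 lower (*Snap25*, also below background) in all 3 experiments, and the brightest, *Jag1*, a Notch ligand, had -0.27, 0.22 and -0.04.

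Among genes above background, 2 had opposite differences of at least 1.5-fold in experiment 1 and 2-fold in both others. *Snai2*, the transcription factor SLUG of mesenchymal cells, had 12.08, 11.94 and 10.70 with Ctrl-siRNA and 11.47, 13.02 and 12.29 with Paral1-siRNA, that is -0.61, 1.08 and 1.59. *Pip*, prolactin-induced protein, had 10.65, 12.86 and 13.17 with Ctrl-siRNA and 9.17, 14.60 and 14.58 with Paral1-siRNA, that is -1.48, 1.75 and 1.41. Both were lower with Paral1-siRNA in experiment 1 and higher in experiments 2 and 3.

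The same siRNA comparison at D9, in cells transfected as adipocytes, used other experiments and shared no array with D2. The difference between days passed the adjusted threshold for 0 of 30176 genes (limma on the 6 pair differences, lowest adjusted p = 0.247), while 2199 had an unadjusted p under 0.05. Of the 30 leading genes, 3 of the higher ones (*Txnip*, *Vegfd* and *Lcn2*) and 8 of the lower ones kept their sign in all 3 pairs at D9. The shares of all genes with 1 sign at D9 were not counted, so these counts cannot be judged against them. *Igf2r* had D9 pair differences of -0.83, -0.75 and -0.74. *Txnip* had 0.39, 0.21 and 0.23, and *Lrig1* -0.09, -0.09 and 0.17. The median of the 15 higher genes was 1.23 at D2 and 0.08 at D9, and that of the 15 lower ones -1.40 and -0.22. Since the genes were chosen for their size at D2, a smaller value at D9 is not a finding.

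**Figure D5:**
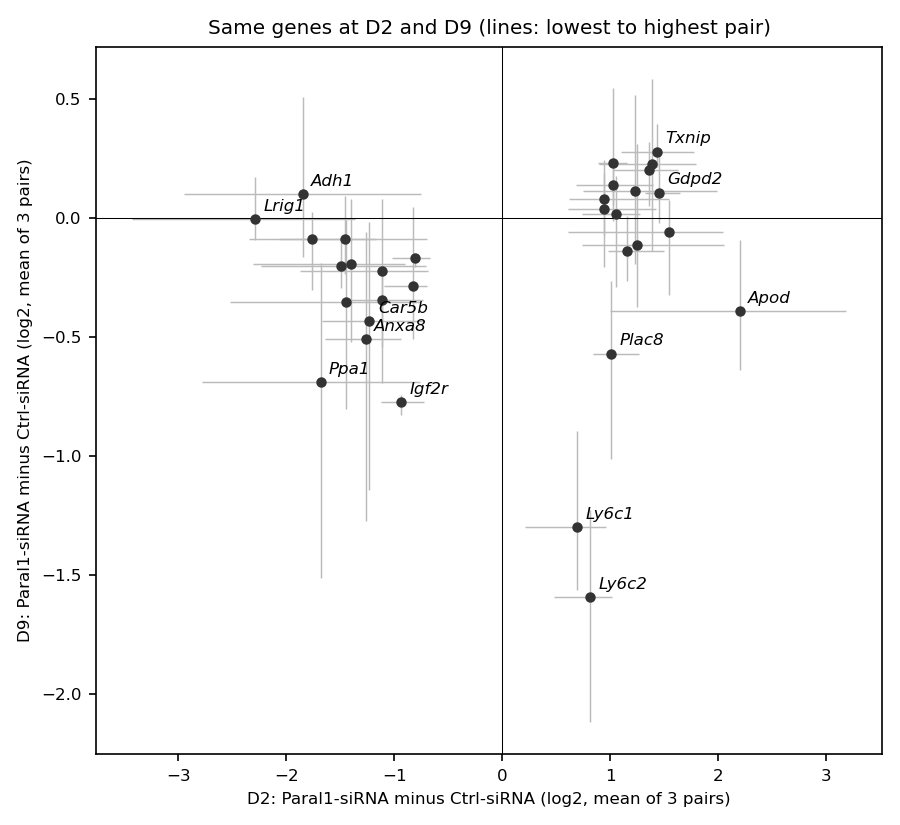
Mean pair difference (log2, Paral1-siRNA minus Ctrl-siRNA) at D2 (x axis) against D9 (y axis) for the 30 leading genes with *Ly6c1* and *Ly6c2*, lines spanning the lowest to the highest pair. *Igf2r* lies low on both days, whereas *Ly6c1*, *Ly6c2*, *Plac8* and *Apod* lie to the right of 0 and below it.

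For gene groups, mitosis had a median of -0.32 at D2 and 0.16 at D9, DNA replication -0.31 and 0.05, and endoplasmic reticulum folding -0.35 and -0.06. The proteasome had -0.36 and -0.20. The difference between days was not tested for groups. The surface antigen genes *Ly6c1* and *Ly6c2* were higher at D2 and lower at D9. *Ly6c2* had 9.02, 7.83 and 9.48 with Ctrl-siRNA and 9.50, 8.85 and 10.44 with Paral1-siRNA at D2 and pair differences of -2.12, -1.43 and -1.23 at D9, with a difference between days of 2.41 (SE 0.25, adjusted p = 0.247 in limma). *Ly6c1*, a near-identical copy that its probes may not separate, had 0.21, 0.92 and 0.96 at D2 and -1.56, -1.43 and -0.90 at D9.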

How the data were processed

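RNA of 12 samples (6 at D2 and 6 at D9) was hybridised to Affymetrix Mouse Transcriptome Arrays, and the deposited log2 values were made by the authors with RMA, in Expression Console 1.4.1 per the labels. The methods of the study name GCCN and SST pre-processing in Expression Console and RMA in Partek Genomics Suite. RMA draws arrays towards 1 distribution, so a shift common to most genes may not be seen. The D2 arrays still differed: gene medians ran from 5.27 to 5.53, highest in experiment 1. At the scale limit of 19.93 stood 0 genes on the experiment 1 arrays and 13 or 14 on each other one. Whether this bears on the smaller differences of experiment 1 was not tested. Renewed quantile normalization gave 5079 genes higher and 4978 lower in every experiment. Probe sets (30638) that the platform table pairs with 1 symbol were used, the brightest for 354 genes with several, leaving 30176 genes, and 2176 probe sets with several symbols were left out. Symbols matched RefSeq for 29849 genes. The background limit of an array is its brightest of 23 background probe sets.

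The 3 pairs at D2 were fitted with limma 3.58.1 in R 4.3.3 (experiment and treatment as terms, moderated over all genes, Benjamini-Hochberg adjustment over all of them). The pairing comes from the experiment label. Deviations from the group means of arrays with the same number correlated at 0.876, 0.787 and 0.720 over 11696 genes, and of arrays with different numbers at -0.836 to 0.42. The fit was tested on simulated data. Members, lists and motifs were chosen with earlier results of these data known. Named genes were the 15 higher and 15 lower with the largest smallest pair difference, up to 4 per list by mean, genes opposed between experiments, the neighbours *Pak7* and *Ankef1* (Ankrd5), and near-identical copies. Lipid genes, predicted models and pseudogenes were left out. A gene list is not reported here. Of genes passed over, 10 lower ones were lipid genes. Other list members named for their role were picked after their values were seen. Promoters were RefSeq sequences of GRCm38.p6. Alternatives were no experiment block, a random block, all 12 arrays, mean-dependent robust variances, quantile normalization, median centring, a filter on dim genes, and leaving out each experiment.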

Additional observations from a re-analysis of the deposited data

Results flagged for a closer look

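For 17 of the 143 named genes, the 3 pair differences at D2 all had one sign and the 3 at D9 all had the other. Most named genes were chosen for having 1 sign at D2. The share of all genes with such opposite signs was not counted, so the count itself is no result about these genes. None of the differences between days passed an adjusted p of 0.05 in limma (0.247 for the lowest), the genes were named for their D2 values, and no explanation was tested. Genes higher with Paral1-siRNA at D2 and lower at D9 were *Apod* (D2 minus D9 difference 2.59, log2), *Ly6c2* (2.41), *Ly6c1* (1.99), *Plac8* (1.58), *Lgals9* (1.40), *Anpep* (1.07), *Meis1* (1.02), *Pnp* (0.95) and *Cxcl1* (0.47). *Apod* had D9 pair differences of -0.09, -0.44 and -0.64, and *Plac8* of -0.26, -1.01 and -0.43. Genes lower at D2 and higher at D9 included the replication and nucleotide genes *Mcm5* (-0.89) and *Rrm2* (-1.09), the cell cycle inhibitor *Cdkn2c* (-0.75), the linker histone *H1f5* (-0.95), the amino acid carriers *Slc1a3* (-1.10) and *Slc7a1* (-0.90), the collagen hydroxylase *P3h2* (-0.94) and the ribosome biogenesis factor *Utp20* (-0.70).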

How the results depend on the processing

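Among 143 named genes, 1569 of 1571 values under 11 alternatives kept direction and side of the threshold. The exceptions were *Gdpd2*, which passed with all 12 arrays in 1 fit (1.46, the 1 gene to do so), and *Pak7*, which had -0.0102 after median centring. Much of this agreement was fixed in advance. Most named genes were chosen for 1 sign in all 3 pairs, so leaving out 1 experiment could not reverse them. Changes to the block or the variance left the mean difference almost the same. No gene passed the adjusted threshold in the main fit, so few could change side. Without the replicate block, 128 genes in place of 644 passed 1.5-fold and an unadjusted p under 0.05, and the pairing changed no other call. Genes higher and lower in every experiment numbered 3583 and 6828 after centring each array, and 2013 and 2822 with dim genes removed. Leaving out 1 experiment gave 7430 to 12230 higher (5677 in all 3) and 7077 to 7753 lower (4393), over 2 pairs in place of 3. By 1.5-fold or more in both remaining experiments, 83 to 292 were higher and 131 to 364 lower, the most without experiment 1, and 680 to 1303 passed 1.5-fold with an unadjusted p. Of 244 medians of the 35 lists, 218 changed by less than the spread between experiments. With dim genes removed, medians were ATF4 targets -0.37, acute phase 0.55, vasoactive 0.15, brown markers -0.10, chemokines 0.32, collagens 0.12, interferon-stimulated 0.21, macrophage markers -0.59, matrix proteases 0.29, mesenchymal factors 0.27, preadipocyte 0.24, purine breakdown 0.053, receptor kinases -0.077, retinol -0.12, secreted growth factors 0.34, smooth muscle 0.19 and antioxidants -0.17. Renewed quantile normalization gave acute phase 0.055, and centring gave acute phase 0.037, receptor kinases -0.072, retinol -0.031 and antioxidants -0.14. Leaving out 1 experiment gave -0.022 to 0.041 for collagens, -0.40 to -0.29 for endoplasmic reticulum folding, -0.014 to 0.041 for purine breakdown and -0.14 to -0.064 for antioxidants. Without experiment 3, the medians of mitochondrial import (-0.19), ribosome biogenesis (-0.21), nucleotide synthesis (-0.21) and white adipocyte markers (-0.86) were nearer 0. The causes were not tested. The 3 pairs, 1 siRNA and dim signals for most immune genes limit what could be called.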
